A study of Mus musculus with 272 samples.

Results

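The splicing factor genes described here are the 74 genes of the deposited table whose symbols begin with Srsf and a digit, Hnrnp, Sf3a or Sf3b, Snrp, Snrnp, Prpf or U2af, out of 15771 genes with distinct values. Pseudogene symbols ending in -ps were left out. The list holds 20 hnRNP genes, 11 genes of the U2 snRNP, 10 SR protein genes, 9 genes of the U4/U6.U5 tri-snRNP, 8 Sm core genes, 7 other Prpf genes, and 3 genes each of the U1 snRNP, the U2AF group and the minor spliceosome.

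RNA was measured in mouse germinal vesicle (GV) oocytes, metaphase II (MII) oocytes, zygotes, 2-cell, 4-cell and 8-cell embryos, morulae and blastocysts, with no strain, genotype, animal age or treatment given beyond the stage. Each of the 8 stages has 4 transcriptome libraries, made from pools of 20 oocytes or embryos, and 3 sucrose gradients, A to C, each loaded with a cleared lysate of about 100 oocytes or embryos and collected as 10 fractions. Cycloheximide, which holds ribosomes on their transcripts, was present in every lysate and gradient. Fractions 6 to 10 are called heavy here and fractions 1 to 5 light. Transcripts carrying many ribosomes sediment into the heavier part of such a gradient.

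The spliceosome removes introns from pre-mRNA. U1 binds the 5′ splice site, the U2AF proteins bind the end of the intron, U2 pairs with the branch point, and the tri-snRNP then joins and is rearranged into the active enzyme. A ring of Sm proteins encircles the RNA of U1, U2, U4 and U5. SR proteins and hnRNPs bind pre-mRNA and influence which splice sites are used. Fully grown mouse oocytes stop transcription, part of the stored maternal mRNA is lost during maturation and after fertilization, and the main wave of embryonic transcription begins in the 2-cell embryo.

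Values are CPM, the reads of a gene per 1 M reads of its library, and so are relative to the library and not amounts per embryo. In such bulk samples, fewer cells of a type and less RNA per cell cannot be told apart. The libraries were made from polyadenylated RNA, so RNA amount and polyadenylation cannot be told apart either. Depth was 11.2 to 24.3 M reads in the transcriptome libraries and 0.0102 to 43.2 M in the fraction libraries. Both libraries under 0.1 M were fraction 1 of GV gradients (0.0102 M in A and 0.0231 M in B). The stage markers followed the labels in the pools: the summed CPM of 8 oocyte genes was 21670 to 24310 in GV oocytes and 67.99 to 80.98 in 4-cell embryos, that of 6 genes of the 2-cell embryo was 2046 to 2720 in 2-cell embryos and at most 227.1 in the pools of the other stages, and that of 6 blastocyst genes was 2370 to 2955 in blastocysts and at most 352.3 in the pools of the other stages. In gradient means the oocyte genes had 754.9 to 1198 CPM at the 4-cell stage. At the 8-cell stage they had 401 to 544.1, against 47.91 to 77.55 in the pools. The 2-cell genes had 21.04 to 79.19 CPM in 4-cell gradient means, against 4.287 to 18.62 in the pools. The 2-cell and blastocyst lists were still highest in the gradients of their own stage (773.7 to 1131 and 3412 to 4914 CPM). Of 9 cumulus and granulosa markers 3 are in the table. Their summed CPM was 16.88 to 32.71 in the 4-cell pools but 228.9 to 488.9 in the means of the 4-cell gradients, and 15.08 to 25.62 against 132.1 to 341.4 at the 8-cell stage, where the defining marker Fshr was at 0 in every pool. The part of these marker differences in the 4-cell and 8-cell gradient results was not tested.

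The summed level of the 74 genes changed between stages. The pools had a mean of 6317 CPM in GV oocytes (SD 241, n = 4), 8121 in MII oocytes (SD 206, n = 4), 8960 in zygotes (SD 363, n = 4) and 7209 in 2-cell embryos (SD 157, n = 4). The mean was then 20558 CPM in 4-cell embryos (SD 620, n = 4), 20096 in 8-cell embryos (SD 751, n = 4), 18539 in morulae (SD 2038, n = 4) and 15044 in blastocysts (SD 1073, n = 4). The lowest 4-cell pool had 19666 CPM and the highest 2-cell pool 7354, so these stages did not overlap. The map of stage means by role sets each gene's level against its own mean.

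**Figure D1:**
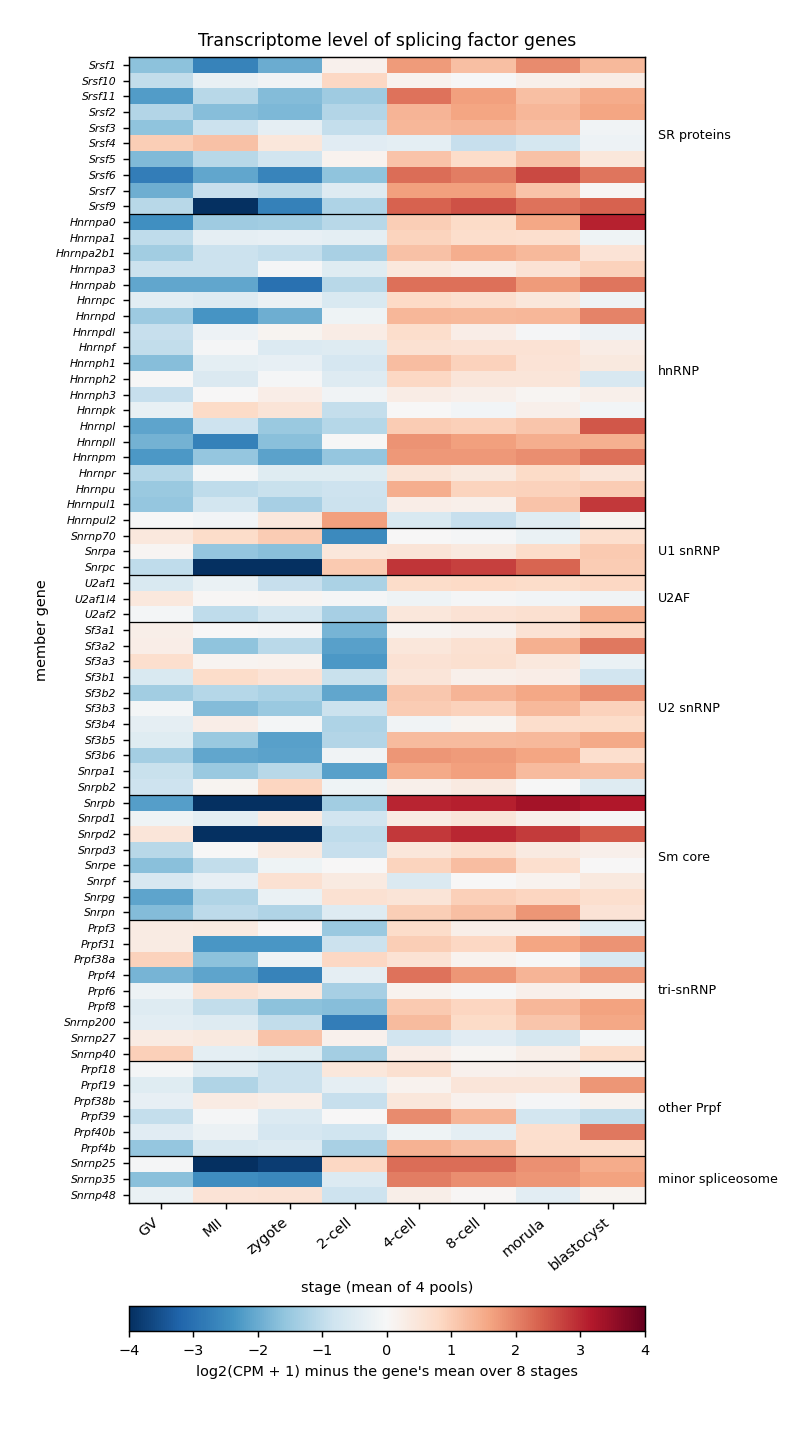
Transcriptome level of 73 of the 74 splicing factor genes (vertical axis, grouped by role) at each of the 8 stages (horizontal axis), as the stage mean of log2(CPM + 1) minus the gene's mean over stages; the colour scale ends at 4 in either direction. Most genes lie below their own mean from the GV oocyte to the 2-cell embryo and above it from the 4-cell embryo on, where the summed level rose from 7209 to 20558 CPM.

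Consecutive stages were compared with limma on log2(CPM + 1), and a gene was called where its Benjamini-Hochberg adjusted p over all tested genes was below 0.05 and its log2 change at least 1. Of the 74 genes, 73 passed the filter on low values; U2af1l4, with at most 0.598 CPM in any pool, did not. From GV to MII 10 genes rose and 13 fell, where 9.11% and 25.3% of the 14642 tested genes did, and the median log2 change was 0.24 against -0.11 for all genes. From MII to zygote 4 rose and 0 fell, against 5.79% and 4.48% of all genes (10.3% in either direction). From zygote to 2-cell 17 rose and 17 fell, against 25.2% and 8.71%, with a median of 0.05 against 0.37. From 2-cell to 4-cell 54 rose and 1 fell, against 31.8% and 32.9% (64.8% in either direction), with a median of 1.69 against 0.02.

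After the 4-cell stage few of these genes changed. From 4-cell to 8-cell 0 were called by limma and 0 by edgeR, against 2.6% of all genes (0.451% higher and 2.14% lower), and 17 had an unadjusted p under 0.05. From 8-cell to morula 1 rose and 1 fell, against 8.18% and 3.7% (11.9% in either direction), and this count was 1 without 8-cell pool C or without morula pool A. From morula to blastocyst 5 rose and 6 fell, against 18.8% and 7.97%. Without MII pool C the 4 calls from MII to zygote became 2.

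The split at the GV to MII and zygote to 2-cell steps depended on the scaling between libraries. From GV to MII it was 10 higher and 13 lower as deposited, 21 and 11 after quantile normalization, 23 and 11 with TMM scaling, and 27 and 12 with edgeR, and the median of all genes moved from -0.11 to 0.16 with quantile normalization. From zygote to 2-cell it was 17 and 17 as deposited, 15 and 21 after quantile normalization, 14 and 22 with TMM scaling, and 15 and 23 with edgeR, and the median of the splicing factor genes was then -0.27 to -0.29. From morula to blastocyst edgeR gave 5 higher and 10 lower. None of the 129 calls on the pools changed sign in any alternative, and 102 were kept in all of them.

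**Figure D2:**
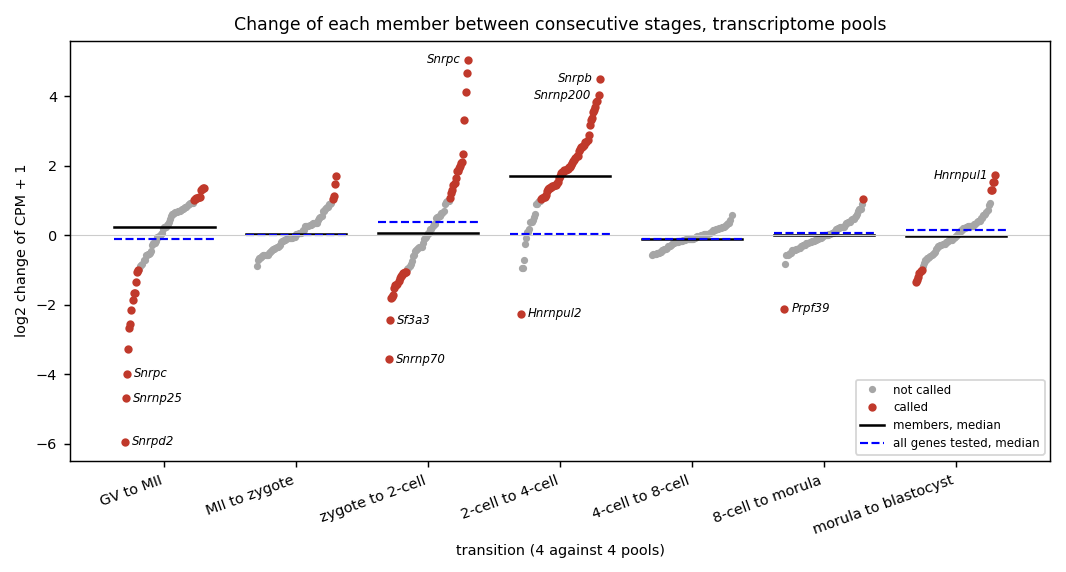
Log2 change of each splicing factor gene between consecutive stages in the transcriptome pools (vertical axis) for the 7 transitions (horizontal axis); red points are called genes, the black line is their median over the list and the blue dashed line the median of all tested genes. The 2-cell to 4-cell column stands out, with 54 genes called higher and a median of 1.69, and the 4-cell to 8-cell column has 0 called genes.

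Among the Sm core genes, which encode the ring around the snRNAs, Snrpd2 and Snrpb fell at maturation and rose again in the 2-cell embryo, and Snrpd3 rose at maturation. Snrpd2, the SmD2 protein of the ring, had 111, 122, 126 and 148 CPM in the 4 GV pools and 0.61, 0.789, 1.06 and 2.06 in the MII pools. Its zygote pools had 1.11, 1.52, 1.63 and 2.32 CPM, its 2-cell pools 39.8, 42.1, 44.8 and 51.4, and its 4-cell pools 571, 593, 714 and 740. No 2 neighbouring groups in that series overlapped other than MII and zygote. The fall to MII was -5.94 (SE 0.17, adjusted p = 6.89e-26) and the rises that followed were 4.12 to the 2-cell stage (SE 0.17, adjusted p = 2.24e-21) and 3.85 to the 4-cell stage (SE 0.17, adjusted p = 2.85e-21). The gradient fractions fell less far, from a mean of 404.29 CPM in GV to 43.28 in MII oocytes. The near absence at MII was seen in the pools and not in this mean, which weights all fractions equally. Fraction 1 held 65.01% of the summed CPM in MII gradients. The heavy fractions had a called log2 change of -4.17 from GV to MII. The cause of the difference between pools and fractions was not tested.

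Snrpb, which encodes SmB, also fell at maturation and rose to the 2-cell and 4-cell stages. Its GV pools had 12.1, 15.5, 16.4 and 20 CPM, its MII pools 2.01, 2.3, 3.34 and 3.59, and its 2-cell pools 20.1, 21.9, 32.5 and 41.2. The 4-cell pools had 596, 636, 690 and 692 CPM, far above every earlier pool. Snrpb fell by 2.16 to MII, rose by 3.33 to the 2-cell stage and by 4.50 to the 4-cell stage (SE 0.18, adjusted p = 2.34e-22), the largest rise of any splicing factor gene at that step. Snrpn, an imprinted gene whose protein is closely related to SmB, rose by 1.48 to the 4-cell stage (126 to 175 CPM against 46.2 to 59.6) and fell by 1.19 to the blastocyst.

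Of the 8 Sm genes Snrpd2 and Snrpb were the 2 called lower at maturation, against 25.3% of all genes. Snrpd1 had 288 to 334 CPM in MII pools against 327 to 413 in GV pools, a log2 change of -0.22 that was not called. Snrpe had 230 to 269 CPM in MII pools and 1106 to 1227 in 8-cell pools, and none of its single steps was called. Snrpg had 83.1 to 104 CPM in GV pools, 173 to 185 in MII, 297 to 431 in zygote and 529 to 715 in 2-cell pools, a stepwise series of groups that do not overlap. Snrpd3 rose by 1.10 to MII and fell by 1.24 to the 2-cell stage. Snrpf stayed between 0.98 and 7.69 CPM in all 32 pools. Per kilobase of exon, Snrpd1 was the highest splicing factor gene of GV oocytes (263 CPM per kb) and zygotes (369), Snrpg that of 2-cell embryos (589) and morulae (699), Snrpe that of 4-cell (670) and 8-cell embryos (849), and Snrpb that of blastocysts (618). Snrpe, Snrpg and Hnrnpa1 have near-identical processed copies elsewhere in the genome and the handling of reads that fit several places is not given in the sources used here, so their levels are uncertain.

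The 3 genes of the U1 snRNP, which recognizes the 5′ splice site, went different ways. Snrpc, a small U1 protein that touches the splice site, had 23.9, 29.5, 33 and 33.9 CPM in GV pools, 0.516, 0.74, 1.23 and 1.45 in MII pools and 2.5, 2.56, 3.01 and 3.97 in zygote pools. The 2-cell pools had 116, 121, 138 and 147 CPM, above all earlier pools. It fell by 3.98 to MII (SE 0.17, adjusted p = 9.06e-21) and rose by 5.04 to the 2-cell stage (SE 0.17, adjusted p = 1.57e-23), the largest rise among the splicing factor genes at that step.

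Snrnp70, the U1-70K protein, showed the opposite order. It had 134 to 220 CPM in MII pools and 191, 200, 253 and 257 in zygote pools, then 12.8, 15.4, 20.5 and 25.3 in 2-cell pools and 82.8, 109, 115 and 151 in 4-cell pools. The 2-cell pools lay below every pool of the neighbouring stages. The fall was -3.57 (SE 0.18, adjusted p = 1.92e-18), the largest among these genes at that step, and the rise that followed was 2.58.

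**Figure D3:**
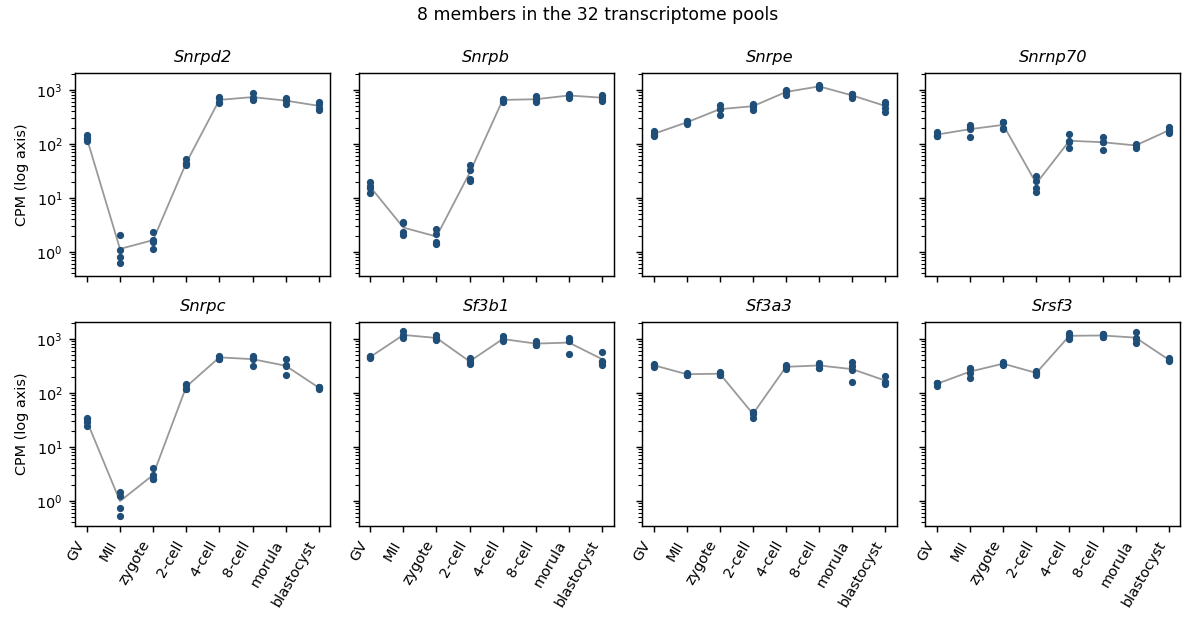
Transcriptome level (vertical axis, CPM on a log scale) of 8 splicing factor genes in each of the 4 pools of the 8 stages (horizontal axis); points are pools and the grey line joins the stage means. Snrpd2, Snrpb and Snrpc drop at MII and recover in 2-cell embryos, Snrnp70, Sf3a3 and Sf3b1 dip in 2-cell embryos, and Snrpe has no called step.

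In the U2 snRNP, whose proteins hold U2 RNA on the branch point, 7 of 11 genes fell and 1 rose from zygote to 2-cell, and 10 of 11 rose from 2-cell to 4-cell. Of all genes 8.71% fell and 25.2% rose at the first of these steps, and 31.8% rose at the second. Sf3a3, a subunit of the SF3a complex, had 215, 216, 234 and 242 CPM in zygote pools, 34.2, 40.5, 43.8 and 44.8 in 2-cell pools and 278, 299, 312 and 330 in 4-cell pools. The 2-cell pools were the lowest and did not overlap with either neighbour. The fall was -2.45 (SE 0.16, adjusted p = 8.00e-16) and the rise 2.87. Sf3a1, another SF3a subunit, had 50.2 to 65.2 CPM in zygote pools and 12.9 to 20.4 in 2-cell pools (log2 change -1.81), and rose by 1.95 afterwards.

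Sf3b1, the SF3b subunit that grips the branch point helix, was the member of this group that rose at maturation. It had 448, 454, 465 and 488 CPM in GV pools, 1051, 1142, 1185 and 1377 in MII pools, 977 to 1165 in zygote pools and 336, 363, 390 and 447 in 2-cell pools. The GV and MII pools did not overlap, and the 2-cell pools lay below all GV pools. Its changes were 1.35 to MII (SE 0.15, adjusted p = 1.73e-09), -1.45 to the 2-cell stage and 1.38 to the 4-cell stage. Sf3b5, a small SF3b subunit, fell by 1.01 to MII, a call lost with quantile normalization, TMM scaling and edgeR and without any of GV pools A and C and MII pools B and D, and rose by 2.41 to the 4-cell stage (344 to 617 CPM against 75.9 to 92.9).

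Promoter sequences are shown here because 10 of the 11 U2 snRNP genes were called higher from 2-cell to 4-cell. The genes shown differ at the step before, where Sf3a1, Sf3a2, Sf3a3 and the tri-snRNP gene Snrnp200 fell and Sf3b6 rose. RefSeq (build GRCm38.p6) gave a promoter of 300 bases, from 250 before to 50 after the start, for 64 of the 74 genes, and each was searched on both strands for 5 motifs. The Ets core CCGGAAG was found in 32.8% of them and in 9.12% of 27025 promoters of all genes, and among U2 snRNP genes in 7 of 9. It was found in 11.1% of 18 hnRNP promoters. Genes called higher from 2-cell to 4-cell held it in 30.4% of 46 promoters and the other splicing factor genes in 38.9% of 18. A match is a description of letters, not evidence of binding. In the 150 bases before the start shown here, capitals mark the Ets core on either strand. Snrpd2, an Sm core gene that also rose at both steps, is shown as a gene whose stretch holds no exact match to CCGGAAG.

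Sf3a1 (chr11:4160204-4160353, plus strand): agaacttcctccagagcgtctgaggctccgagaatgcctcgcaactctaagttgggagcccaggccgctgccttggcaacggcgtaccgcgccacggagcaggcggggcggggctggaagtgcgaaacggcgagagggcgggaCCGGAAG
Sf3a2 (chr10:80798585-80798734, plus strand): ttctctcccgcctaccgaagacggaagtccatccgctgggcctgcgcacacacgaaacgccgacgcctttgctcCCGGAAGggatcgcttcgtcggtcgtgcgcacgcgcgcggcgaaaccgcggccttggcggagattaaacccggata
Sf3a3 (chr4:124714711-124714860, plus strand): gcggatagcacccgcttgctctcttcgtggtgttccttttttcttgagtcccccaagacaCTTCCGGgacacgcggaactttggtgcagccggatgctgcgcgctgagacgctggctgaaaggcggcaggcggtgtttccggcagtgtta
Sf3b6 (chr12:4817458-4817607, plus strand): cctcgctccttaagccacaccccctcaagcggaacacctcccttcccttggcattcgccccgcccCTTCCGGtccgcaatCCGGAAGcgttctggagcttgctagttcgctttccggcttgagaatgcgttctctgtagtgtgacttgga
Snrnp200 (chr2:127208236-127208385, plus strand): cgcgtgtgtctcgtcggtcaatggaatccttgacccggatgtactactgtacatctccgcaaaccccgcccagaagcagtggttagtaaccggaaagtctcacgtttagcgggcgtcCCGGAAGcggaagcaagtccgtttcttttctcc
Snrpd2 (chr7:19149688-19149837, plus strand): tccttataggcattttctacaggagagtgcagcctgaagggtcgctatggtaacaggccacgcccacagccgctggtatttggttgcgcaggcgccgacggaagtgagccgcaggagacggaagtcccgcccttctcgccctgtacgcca

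The GC box GGGCGG was present in 68.8% of the splicing factor promoters and 35.9% of all, the CCAAT box in 46.9% and 37.9%, and TATAAA in 10.9% and 14.2%. The CRE TGACGTCA was present in 3.12% and 1.88%. Their promoters also had a higher median GC content, 58.8% against 52.7%, and motifs made of G and C follow base composition. Overlaps between motifs were kept.

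In the U2AF group, which marks the end of the intron, the 2 genes tested in the pools, U2af1 and U2af2, rose from 2-cell to 4-cell. Of all genes 31.8% did. U2af1, which reads the AG dinucleotide, had 26.2, 31.5, 31.8 and 36.4 CPM in 2-cell pools and 112, 128, 137 and 140 in 4-cell pools (log2 change 2.01). U2af2, which binds the polypyrimidine tract, had 3.68 to 8.28 and 16.2 to 25.6 CPM (1.79). Neither was called at another step.

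In the tri-snRNP 3 of 9 genes fell at maturation, against 25.3% of all genes. From zygote to 2-cell 2 rose and 3 fell, against 25.2% and 8.71%, and from 2-cell to 4-cell 7 rose, against 31.8%. Snrnp200, the helicase that unwinds U4 from U6, had 21.1 to 28.9 CPM in zygote pools, 5.71, 6.26, 6.59 and 8.46 in 2-cell pools and 98.4, 113, 135 and 161 in 4-cell pools. Its changes were -1.77 and 4.03 (SE 0.19, adjusted p = 5.95e-20). Prpf8, the large protein at the heart of the active site, rose by 2.74 to the 4-cell stage (118 to 186 CPM against 16.4 to 25.8). Prpf38a, needed for activation of the spliceosome, had 329 to 378 CPM in GV pools and 51.4 to 71.9 in MII pools, a fall of -2.57, and rose by 1.48 in zygotes, where it had 152 to 175 CPM. It was one of the 4 genes called from MII to zygote.

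Other Prpf genes differed among themselves. Prpf39, a U1-associated factor, had 105, 126, 170 and 177 CPM in 8-cell pools and 22.3, 25.7, 34.2 and 52.6 in morula pools. It was the gene called lower at that step (-2.11, SE 0.20, adjusted p = 8.27e-10). Prpf40b, called higher there, rose by 1.02, a call lost with 4 other fits and without any of 8-cell pools B and C and morula pool A. Prpf19, the ubiquitin ligase of the complex named after it, had 7.52 to 13.1 CPM in morula pools and 20.9 to 31.9 in blastocyst pools (1.29), a call lost with quantile normalization.

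The minor spliceosome removes a rare class of introns, and Snrnp25, a protein of its U11/U12 particle, moved like Snrpc. It had 42.6, 46.3, 49.4 and 57.4 CPM in GV pools, 0.469, 0.876, 1.06 and 1.37 in MII pools and 85.1, 87.6, 93 and 95.5 in 2-cell pools. The MII pools were far below both other groups. Its changes were -4.70 to MII and 4.67 from zygote to 2-cell (SE 0.17 each).

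Among the 10 SR protein genes, 7 rose from 2-cell to 4-cell and 0 fell, with a median change of 2.21. Of all genes 31.8% rose and 32.9% fell at that step. Srsf9 had 19.7, 20, 22.7 and 26.6 CPM in GV pools, 0.61, 1.58, 1.73 and 1.8 in MII pools and 5.56, 5.82, 7.21 and 8.64 in zygote pools. These groups did not overlap. It fell by 3.28 at maturation and rose at each of the next 3 steps, by 1.70, 1.45 and 3.55, the second of these calls lost with quantile normalization. Srsf6 had 15.7 to 17.3 CPM in 2-cell pools and 233 to 270 in 4-cell pools (3.83). Srsf1 fell by 1.06 at maturation, a call lost with the other scalings, and rose by 2.12 and 1.53 at the 2-cell and 4-cell steps. Srsf2 rose by 2.53 and Srsf7 by 2.13 at the 4-cell step.

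Srsf3, the smallest SR protein, was among the 6 genes that fell from morula to blastocyst. Its morula pools had 833, 1018, 1063 and 1320 CPM and its blastocyst pools 387, 408, 415 and 437, with no overlap. The fall was -1.34 (SE 0.12, adjusted p = 3.51e-11). Snrpc fell by 1.30 at the same step, with 219 to 422 CPM in morula pools and 117 to 130 in blastocyst pools.

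The hnRNPs coat pre-mRNA and include several repressors of splice sites. At maturation 5 of 20 rose and 0 fell, against 9.11% and 25.3% of all genes. From 2-cell to 4-cell 14 rose and 1 fell, against 31.8% and 32.9%. Hnrnph1, which binds runs of G, had 49.2, 51, 52.1 and 52.6 CPM in GV pools and 112, 123, 140 and 144 in MII pools (1.32). Hnrnpk, which binds C-rich RNA, had 383 to 421 CPM in GV pools and 727 to 992 in MII pools (1.07, lost with quantile normalization and without MII pool C), and fell by 1.44 to the 2-cell stage, where it had 230 to 277 CPM. Hnrnpa1 and Hnrnpa2b1, the most studied hnRNPs of the A/B type, rose by 1.28 and 2.47 at the 4-cell step and were called at no other.

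Hnrnpul2, a relative of the nuclear matrix protein Hnrnpu, was the gene called lower from 2-cell to 4-cell. It had 103, 121, 122 and 148 CPM in 2-cell pools and 19.2, 22.4, 24.8 and 35.3 in 4-cell pools. The highest 4-cell pool was below the lowest 2-cell pool. The change was -2.26 (SE 0.18, adjusted p = 1.31e-13). Hnrnpul1, its closest relative, had 23.9, 24.9, 31.4 and 50.9 CPM in morula pools and 81.1, 104, 115 and 131 in blastocyst pools (1.73, SE 0.28, adjusted p = 2.64e-06), the largest rise at that step.

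A further 55 genes of the pathway outside the symbol rule were counted. From GV to MII 5 rose and 22 fell, where 9.11% and 25.3% of all genes did, and 5 of the 7 genes of the Lsm ring of U6 were among those that fell. From MII to zygote 6 rose and 3 fell, against 5.79% and 4.48%. From zygote to 2-cell 10 rose and 11 fell, against 25.2% and 8.71%. From 2-cell to 4-cell 33 rose and 2 fell, against 31.8% and 32.9%, with a median of 1.85, and all 9 spliceosomal helicase and GTPase genes rose. From 4-cell to 8-cell 0 were called, against 2.6%, from 8-cell to morula 2 rose and 0 fell, against 8.18% and 3.7%, and from morula to blastocyst 2 rose and 6 fell, against 18.8% and 7.97%.

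In the gradients, heavy fractions were compared with light fractions of the same stage, over 3 gradients, on the mean CPM of the fractions of each side. Each library is scaled to its own total, so a difference between the sides compares shares of libraries and not numbers of molecules. The median splicing factor transcript lay more on the heavy side than the median gene in GV and MII oocytes, zygotes, 2-cell and 8-cell embryos and morulae with each scaling tried, and in 4-cell embryos and blastocysts the sign of the list's median depended on the scaling. In MII oocytes 21 of 74 were higher and 4 lower on the heavy side, where 8.86% and 6.33% of 15172 genes were, with a median difference of 0.47 against -0.06; TMM scaling gave 18 and 7, and edgeR on the MII libraries alone 20 and 0. In zygotes 18 were higher and 1 lower, against 9.95% and 5.06%, with 0.58 against -0.04; quantile normalization gave 18 and 5. In morulae 18 were higher and 3 lower, against 5.06% and 6.29%, with 0.74 against 0.00. In blastocysts 10 were higher and 11 lower, against 7.24% and 10.1%, with -0.10 against -0.02; edgeR on the blastocyst libraries alone gave 12 and 3, with a median of 0.13.

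The other stages gave fewer calls. In GV oocytes 8 were higher and 1 lower, against 3.3% and 0.811% of all genes (4.11% in either direction), with a median of 0.42 against 0.08; TMM scaling gave 11 and 3, and quantile normalization 7 and 4. In 2-cell embryos 8 were higher and 0 lower, against 1.52% and 2.02%, with a median difference of 0.83 against -0.16. In 8-cell embryos 3 were higher and 1 lower, against 1.08% and 4.03%, with a median of 0.59 against 0.00. In 4-cell embryos limma called 0, against 0.817%, and 6 had an unadjusted p under 0.05; edgeR called 13 with a spread shared by all stages and 0 with the 4-cell libraries alone. The 4-cell median of the list was -0.40 as deposited, 0.05 after quantile normalization, 0.13 with TMM scaling and 0.38 with edgeR. In 4-cell embryos 1.11% of 270 member values stood at 0 in 1 gradient where both other gradients had at least 100 CPM in that fraction, and in 2-cell embryos 7.69% of 117 did.

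These counts rest on 3 gradients. Leaving out 1 gradient gave 1 (without A), 0 (without B) or 3 (without C) calls in GV oocytes, 13 in MII oocytes without B, 12 in zygotes without C, 5 and 2 in 2-cell embryos without A and without B, 0, 2 and 1 in 8-cell embryos without A, B and C, 11, 7 and 9 in morulae without A, B and C, and 12 and 13 in blastocysts without A and without B. Both sides of a gradient come from 1 lysate, a pairing that the main fit did not use. With the gradient as a block GV oocytes had 17 calls. Without fraction 1 GV oocytes had 26 calls and blastocysts 13, of which 10 were higher and 3 lower. With a spread shared by all stages edgeR called 0 in GV oocytes, 2 in MII oocytes, 4 in zygotes, 27 in 2-cell embryos, 1 in morulae and 0 in blastocysts. The share of all genes called in each alternative is not given, so these counts show only how the list's count moved.

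**Figure D4:**
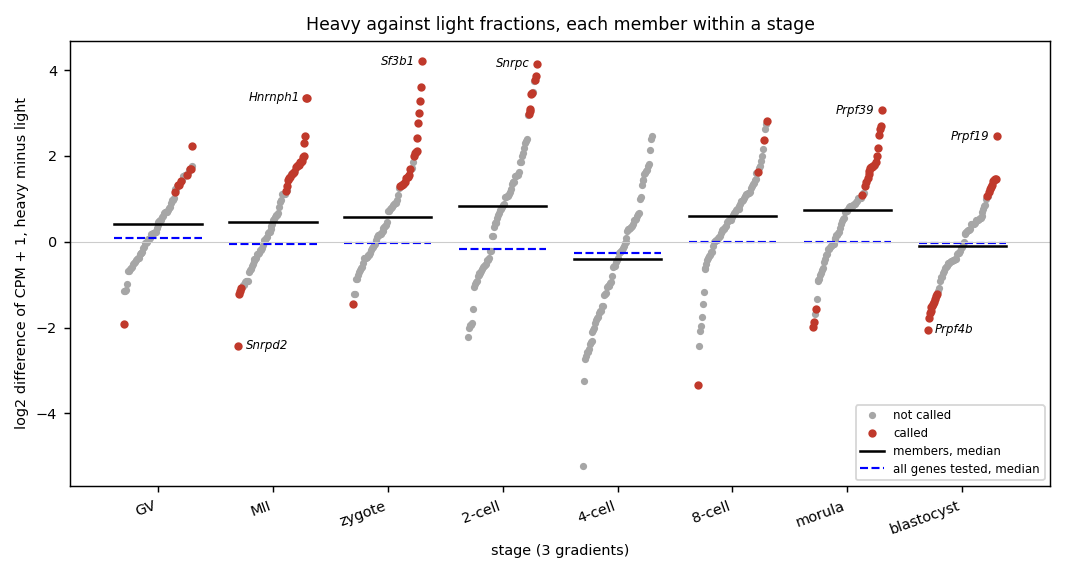
Heavy minus light difference (vertical axis, log2 of mean CPM + 1 in fractions 6 to 10 against fractions 1 to 5, over 3 gradients) of each splicing factor gene at the 8 stages (horizontal axis); red points are called genes, the black line is the list median and the blue dashed line the median of all tested genes. The list median lies above that of all genes in MII oocytes (0.47), zygotes (0.58), 2-cell embryos (0.83) and morulae (0.74), and below 0 in 4-cell embryos and blastocysts, where its sign turned with edgeR (0.38 and 0.17).

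Among the U2 snRNP genes, Sf3b1 had the largest heavy-side difference of zygotes and lay on the light side in blastocysts. In zygotes its mean over the heavy fractions was 372, 180 and 565 CPM in gradients A, B and C, and over the light fractions 17.1, 14.8 and 20.1. Every heavy value was above every light value, and the difference was 4.21 (SE 0.37, adjusted p = 1.21e-10), kept in all 14 alternatives. In MII oocytes it had 324, 303 and 330 CPM against 83.4, 51.6 and 61 (2.3), and in GV oocytes 251, 208 and 170 against 101, 78.6 and 71.1 (1.31, adjusted p = 0.0285, lost when any gradient was left out). In 2-cell embryos it had 70.3, 228 and 181 CPM against 15.5, 5.19 and 21.7 (3.44, adjusted p = 0.0136, lost without B and without C).

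In blastocysts the order of the sides was the reverse. Sf3b1 had 19.6, 18 and 19.9 CPM in heavy and 48.4, 62.4 and 59.2 in light fractions, a difference of -1.51 (SE 0.29, adjusted p = 0.00017). Without fraction 1 the difference was -1.10 and still called. With the shared spread of all stages edgeR called no splicing factor gene in blastocysts, so this call was lost there. The blastocyst difference minus that of zygotes was -5.72 (adjusted p = 5.83e-11), where 21.2% of all genes were called for that pair of stages, and minus that of MII oocytes -3.81 (adjusted p = 9.36e-08, against 21.2%). Minus that of GV oocytes it was -2.82 (adjusted p = 4.16e-05, against 14.9%), and minus that of 2-cell embryos -4.95 (adjusted p = 0.00102, against 4.33%). These pairs of stages were chosen for calls of opposite sign in the same data, so these p-values add no support. By fraction, 29.69% and 31.59% of its summed CPM stood in fractions 9 and 10 in zygotes, 61.01% in fraction 10 in 2-cell embryos and 29.03% in fraction 1 in blastocysts. Sf3a1 also lay on the light side in blastocysts, with 35.2, 33.2 and 37.3 CPM in heavy and 104, 102 and 139 in light fractions (-1.67, adjusted p = 0.00293).

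**Figure D5:**
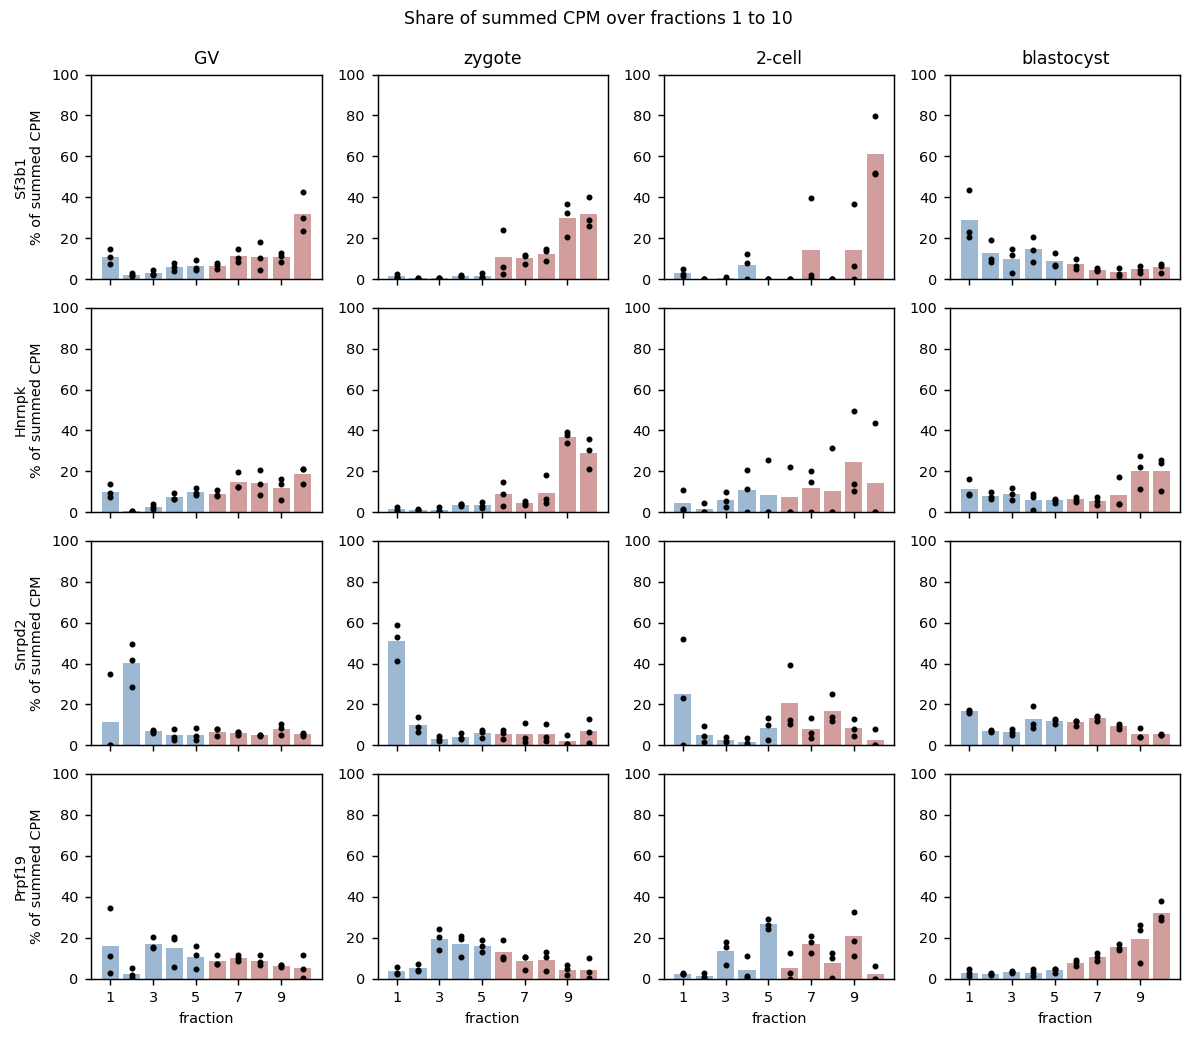
Share of a gene's summed CPM found in each of the 10 fractions (vertical axis, percent; horizontal axis, fraction number from light to heavy) for Sf3b1, Hnrnpk, Snrpd2 and Prpf19 in GV oocytes, zygotes, 2-cell embryos and blastocysts; bars are means of 3 gradients, blue for fractions 1 to 5 and red for 6 to 10, and points are gradients. Sf3b1 peaks in fractions 9 and 10 in zygotes (29.69% and 31.59%) and in fraction 1 in blastocysts (29.03%), and Snrpd2 stands mostly in fraction 1 in zygotes (51.11%).

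Among the 20 hnRNPs 4 were higher and 1 lower on the heavy side in GV oocytes, 7 and 0 in MII oocytes, 7 and 0 in zygotes, 8 and 1 in morulae and 0 and 4 in blastocysts. The 2-cell, 4-cell and 8-cell stages had 3, 0 and 1 higher, with 0 lower at each. Of all genes 3.3% were higher and 0.811% lower in GV oocytes, 8.86% and 6.33% in MII oocytes, and 9.95% and 5.06% in zygotes. In morulae 5.06% and 6.29% were, and in blastocysts 7.24% and 10.1%. The shares were 1.52% and 2.02% in 2-cell, 0.125% and 0.692% in 4-cell, and 1.08% and 4.03% in 8-cell embryos. Hnrnpk had 220, 168 and 249 CPM in heavy and 35.3, 20.5 and 22 in light fractions of zygotes (3.01, SE 0.35, adjusted p = 5.47e-08), with 36.78% of its summed CPM in fraction 9. Hnrnph1 had 25.9, 29.6 and 31 CPM against 1.07, 4.06 and 1.34 in MII oocytes (3.36, adjusted p = 1.89e-05). Hnrnpa1 had 500, 376 and 370 CPM against 46.7, 93.5 and 64.4 in morulae (2.63, adjusted p = 3.83e-06), a call kept in all 14 alternatives. Hnrnpa0, a small A/B-type relative, lay on the light side in blastocysts with 2.33, 1.08 and 8.25 CPM against 8.32, 8.83 and 26.6 (-1.77, adjusted p = 0.00145). In that last case gradient C was the highest on both sides, and its heavy value was just below the lowest light value, that of gradient A.

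Among the other Prpf genes Prpf39 had 17.8, 9.74 and 14.6 CPM against 2.03, 0.521 and 0.164 in morulae (3.07, adjusted p = 0.000535). Prpf19 moved from the middle to the heavy end: its mean fraction number was 4.87 in GV oocytes and 7.85 in blastocysts. It had 132, 226 and 187 CPM against 14.2, 64.2 and 32.1 in morulae (2.48), and 249, 315 and 267 against 43.6, 50.6 and 54.4 in blastocysts (2.46, SE 0.34, adjusted p = 7.11e-07). Prpf4b, a kinase that acts on the tri-snRNP, had 1.6, 0.539 and 1.68 CPM in heavy and 7.6, 7.73 and 9.12 in light fractions of blastocysts (-2.05). Without fraction 1 its difference was -0.97 and not called. With the shared spread of all stages edgeR called none of the genes named in this paragraph.

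The Sm genes did not share a position. Snrpg had 309, 211 and 191 CPM in heavy and 58.3, 98.5 and 94.6 in light fractions of MII oocytes (1.49), and 371, 297 and 324 against 1124, 898 and 734 in blastocysts (-1.46, adjusted p = 8.93e-06). Without fraction 1 the blastocyst difference was -1.0 and not called. The blastocyst difference minus that of MII oocytes was -2.95 (adjusted p = 1.55e-07), a pair chosen for its opposite signs, so that p-value adds no support. Snrpe transcripts were higher in heavy fractions of MII oocytes (1.78) and zygotes (2.12), both calls kept in all 14 alternatives.

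Snrpd2, which fell in the pools at maturation, was lower in heavy than in light fractions of MII oocytes. It had 8.56, 5.55 and 31.2 CPM in heavy and 65.6, 41.6 and 107 in light fractions (-2.42, SE 0.39, adjusted p = 1.42e-05), with 65.01% of its summed CPM in fraction 1. The call was lost without fraction 1 and with edgeR. Snrpb had 76.5, 49.1 and 53.7 CPM in heavy and 8.54, 0.136 and 6.73 in light fractions of 2-cell embryos (3.77, adjusted p = 0.00179, lost without B).

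In the U1 snRNP, Snrpc had 100, 188 and 152 CPM in heavy and 4.36, 8.33 and 9.45 in light fractions of 2-cell embryos (4.15, SE 0.76, adjusted p = 0.00135), kept in all 14 alternatives. In MII oocytes it had 9.2, 3.2 and 14.3 against 22.9, 16.4 and 18.5 (-1.21), a call lost without gradient B and without fraction 1. The 2-cell difference minus that of MII oocytes was 5.36 (adjusted p = 0.00033), where 2.14% of all genes were called for that pair of stages. That pair was chosen for its opposite signs, so the p-value adds no support. Snrnp70 was lower on the heavy side in morulae (-1.86, adjusted p = 0.0313), but its sign turned in other fits and no direction is drawn.

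Of the SR protein genes 5 of 10 were on the heavy side in morulae, against 5.06% of all genes. At every stage 0 were on the light side, against 0.692% (4-cell) to 10.1% (blastocyst) of all genes. Srsf3 had 389, 271 and 341 CPM in heavy and 89.9, 143 and 123 in light fractions of morulae, with no overlap, but its call was lost without gradient A or C and with quantile normalization. The mean fraction number of a transcript, weighted by its CPM, had a median over SR transcripts of 7.17 in 2-cell embryos and 7.05 in morulae, against 6.08 and 6.26 for all splicing factor genes. Of the 3 U2AF genes 2 were higher on the heavy side in blastocysts, against 7.24% of all genes. U2af1 had 174, 193 and 253 CPM against 71.9, 78.7 and 75.1 (1.43), and U2af2 a difference of 1.41 that was lost without blastocyst gradient B. Snrnp40, a U5 protein of the tri-snRNP, had 391, 453 and 379 CPM against 124, 148 and 170 there (1.47).

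Over all expressed splicing factor genes the mean fraction number had a median of 6.05 in GV oocytes, 6.12 in MII oocytes, 6.05 in zygotes, 6.08 in 2-cell embryos, 5.16 in 4-cell embryos, 6.10 in 8-cell embryos, 6.26 in morulae and 5.33 in blastocysts. The median of all genes was 5.75, 5.49, 5.41, 5.08, 4.88, 5.57, 5.72 and 5.39 in that order. The relation of this position to the length of the coding sequence, from 228 bases in Snrpg to 7005 in Prpf8, was positive in GV oocytes (Pearson's r across 61 genes 0.423; 0.301 across 6683 genes of all kinds). In MII oocytes it was -0.0022 across 53 genes and 0.255 across 5610 of all kinds, in zygotes 0.137 across 53 and 0.265 across 5599, and in 2-cell embryos -0.20 across 62 and -0.016 across 6614. It was negative in 4-cell embryos (-0.348 across 69 genes; -0.261 across 6268 of all kinds), 8-cell embryos (-0.303 across 70; -0.212 across 5962), morulae (-0.168 across 70; -0.14 across 6360) and blastocysts (-0.265 across 70; -0.208 across 7229). Genes of 1 library share its depth and its fraction scaling and are not independent, so these values are descriptions.

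The change of the heavy fractions between stages was tested next. From GV to MII 3 genes rose and 14 fell in the heavy fractions, against 4.15% and 13.6% of 14524 genes, while quantile normalization gave 10 and 12 and TMM scaling 5 and 12. Snrpd2 had 242, 156 and 309 CPM in the heavy fractions of GV oocytes and 8.56, 5.55 and 31.2 in those of MII oocytes (-4.17, SE 0.40, adjusted p = 3.31e-07). Snrpa, a U1 protein that binds a loop of U1 RNA, had 174, 112 and 189 CPM and then 10.6, 14.3 and 14.9 (-3.46, SE 0.32, adjusted p = 1.86e-07). Neither pair of groups overlapped, and both calls were kept in all 16 alternatives. Srsf6 rose from 1.74, 1.84 and 8.45 CPM to 18.6, 9.38 and 33.1 (2.19), and Snrpd3 from 30, 51.9 and 50.2 to 149, 117 and 108 (1.5).

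From MII to zygote 3 rose and 2 fell, against 3.71% and 2.44% (6.15% in either direction). Leaving out 1 gradient gave 3 calls without MII A, 1 without MII B or zygote A and 0 without zygote B. From zygote to 2-cell 4 rose and 7 fell, against 3.15% and 8.46%, and 7 in all were called without 2-cell A. The edgeR fit gave 8 higher and 4 lower, and quantile normalization 7 and 6. Sf3a3 had 32.8, 34.5 and 13.3 CPM in the heavy fractions of zygotes and 0.018, 0 and 0 in those of 2-cell embryos (-4.68, adjusted p = 0.00417, kept in all 16 alternatives). That loss was at the step where its pools fell too. Snrpc rose by 3.26 (adjusted p = 0.0049), also kept in all 16.

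From 2-cell to 4-cell 6 rose and 2 fell in the heavy fractions, against 7.56% and 10.9%; quantile normalization gave 7 and 0 and edgeR 16 and 2, and 4 in all were called without 4-cell gradient B. Snrpb rose from 76.5, 49.1 and 53.7 CPM to 720, 762 and 740 (3.64, SE 0.61, adjusted p = 0.000224), kept in all 16 alternatives. Snrpd1 had 24.7, 47.3 and 18.9 CPM in the heavy fractions of zygotes, 0.0921, 3.72 and 1.25 in those of 2-cell embryos and 135, 43.7 and 140 in those of 4-cell embryos. It changed by -3.69 and then by 5.39 (adjusted p = 0.000197). Srsf6 rose by 5.95, with 0.036, 0.0247 and 32.1 CPM in 2-cell and 297, 196 and 140 in 4-cell embryos, so that 2-cell gradient C stood well above A and B.

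Later steps had 1 call each. From 4-cell to 8-cell it was Hnrnpk (4.22), against 0.482% of all genes (0.468% higher and 0.0138% lower), with 4.55, 0.476 and 79.2 CPM and then 125, 275 and 121; the count was 0 without any of 4-cell gradients A and B and 8-cell gradients B and C, and 3 without 4-cell gradient C. From 8-cell to morula it was Hnrnpll (2.04), against 10.6%, with 0 without any of 8-cell gradients A and C and morula gradient C and 2 without 8-cell gradient B. From morula to blastocyst it was Prpf40b (1.62), against 3.44%, with 0 without morula gradient B or C.

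A last test asked whether heavy fractions changed by more or less than the pools. From GV to MII 5 genes changed upwards relative to the pools and 7 downwards, against 12.3% and 4.34% of 15165 genes, and the count was 6 without GV gradient B and 7 without MII gradient A or C. Snrnp25 (1.98), Snrpd2 (1.77) and Snrpc (1.55) had the largest upward differences, each a smaller fall in the heavy fractions than in the pools; the call for Snrpd2 was lost without MII gradient C and that for Snrpc without GV gradient B or MII gradient C. Prpf3, a U4/U6 protein, had the largest downward difference (-2.72), with 34.8, 73.7 and 48.8 CPM in the heavy fractions of GV oocytes and 3.78, 3.57 and 21.4 in those of MII oocytes. Snrnp200 had -1.80 (adjusted p = 0.0324), a call lost in 9 of 21 alternatives, among them the fits without MII pool A, without GV gradient A or B and without any of the 3 MII gradients. Snrpa had -1.79, kept in all 21. From MII to zygote 2 genes were called, against 3.41%, of which Snrpg (-2.05, SE 0.38, adjusted p = 0.000444) was kept in all 21. Its pools had 173 to 185 CPM in MII oocytes and 297 to 431 in zygotes while its heavy fractions had 309, 211 and 191 and then 78.5, 123 and 113. That count was 1 without MII gradient A or zygote gradient A and 4 without zygote gradient C or zygote pool B.

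From zygote to 2-cell 3 genes were called, all downwards, against 8.66%, and the scalings did not keep that direction: quantile normalization gave 1 higher and 0 lower and TMM scaling 0. The count was 1 without zygote gradient A, 6 without zygote gradient C or 2-cell gradient C and 5 without zygote pool B. From 2-cell to 4-cell 4 were called, against 2.57%, and the median difference was -1.58 against -0.16 for all genes. Snrpd1 (4.31, SE 0.81, adjusted p = 0.00133) was kept in all 21 alternatives. Prpf18 (-5.09), a factor of the second step of splicing, Hnrnpk (-4.39) and Sf3b2 (-4.04), an SF3b subunit, had downward differences, while their pools changed by 0.19, 0.95 and 3.17, of which the last was called. Their 3 calls were lost without 2-cell gradient C and without 4-cell gradient B. The count was 2 without 2-cell gradient C or 4-cell gradient B and 7 without 4-cell gradient C.

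From 4-cell to 8-cell 2 were called (Hnrnpk and Prpf38a), against 0.646%, with 0 without any of 4-cell gradients A and B and 8-cell gradient B, 1 without 8-cell gradient C and 4 without 4-cell gradient C. From 8-cell to morula it was Prpf39 (2.92), against 3.28%, whose pools fell while its heavy fractions had 3.94, 32.9 and 2.52 and then 17.8, 9.74 and 14.6 CPM; the count was 0 without 8-cell gradient C or morula gradient C and 2 without 8-cell gradient B. From morula to blastocyst Srsf7 (1.36) and Srsf3 (1.13) were called, against 7.7%, with 0 without any of morula gradients B and C and blastocyst gradient C and 4 without morula gradient A. The pools of both genes fell at that step.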

How the data were processed

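The authors' table gives CPM, a gene's reads scaled to 1 M reads per library, as deposited for 15854 symbols and 272 libraries, and 159 symbols in 76 groups with identical values were reduced to 1 symbol each, which left 15771. With these repeats 38 deposited columns exceeded a sum of 1 M, and the largest were entered as signal in the check of units. This signal was scaled by the authors like the rest and was used as CPM. Per the submitters' processing notes the tools were Trim Galore 0.6.7, FastQC, HISAT2 2.2.1, featureCounts 2.0.1 and edgeR, with the build GRCm39. Per the labels' protocols polyadenylated RNA was amplified with a Smart-seq kit and made into libraries by Nextera tagmentation. Strand setting and treatment of reads that map to several places are not given in the sources used here. In 271 libraries the deposited CPM were whole multiples of 1 read (100% of values, within 0.05 reads), so reads were recovered for edgeR. Fraction 7 of 2-cell gradient B also met this check (100%) but was left out of edgeR. Depth was a median of 17.6 M reads in transcriptome and 18.7 M in fraction libraries, and shallow fraction libraries limit precision.

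Groups followed the labels. The labels do not say that pools or gradients came from separate animals, so p-values measure the spread between these samples. The letters of the 2-cell transcriptome columns (E to H) are not those of the labels (A to D), so these were used without a letter. Over 286 replicate pairs the chi-square per degree of freedom of reads was at least 2.55 (median 270), so each library counted once. Genes with at least 1 CPM in at least 4 pools, or in at least 3 samples in the fits with gradients, were tested. The samples could be of any stage. Tests used limma 3.58.1 (R 4.3.3, trend, moderated variance) on log2(CPM + 1), a scale that understates changes of low genes. The p-values were adjusted over all tested genes by Benjamini-Hochberg. Gradient fits used weights per stage from limma's array weights. The heavy and light values are means over fractions 6 to 10 and 1 to 5. Consecutive transitions share the samples of a stage. Alternatives were quantile and TMM scaling, edgeR 4.0.16, a pseudocount of 0.1, no filter, unweighted samples, only the groups compared, fractions 7 to 10 against 1 to 4, a replicate block and leaving out each library. edgeR on single stages, the light fractions 2 to 5 and the test of differences between stages were added after seeing the data. Fits were tested on simulated data.

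Replicate letters did not pair samples: same-lettered samples of different stages had a mean correlation of 0.016 in pools (84 pairs, -0.18 to 0.197) and 0.003 in heavy fractions. Heavy and light values of 1 gradient share a lysate (24 pairs, mean 0.104, lowest 0.008) and are paired. The main heavy against light fit and the test of differences between stages did not use this pairing, so their p-values are unpaired. The gradient block was run as an alternative.

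The list and its gene groups were chosen with earlier results of these data known. Named genes were Srsf1, Srsf2, Srsf3, Srsf7, Hnrnpa1, Hnrnpa2b1, Hnrnpk, Snrpb, Snrpn, Snrpd1, Snrnp70, Sf3b1, Sf3b5, U2af1, U2af2, Prpf8, Prpf19 and Snrnp200, and up to 3 called genes with the largest rise and fall in each comparison. Others were named after their values were seen. Lengths are from GENCODE vM21 and promoters from RefSeq. Values of 1 gene of the list are not reported here; it is included in the counts and medians.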

Additional observations from a re-analysis of the deposited data

Results flagged for a closer look

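In 12 of 272 groups of 4 pools, 1 pool stood far from the other 3 by Dixon's criterion, which chance exceeds in about 1 of 20 groups. In GV oocytes Srsf3 had 135.6 CPM in pool B, against 149.75 to 152.15 in the others. In zygotes Prpf40b had 1.04 CPM in pool B against 0.20 to 0.28, and pool C stood apart for Snrpn (27.56 CPM against 34.16 to 35.46), Srsf7 (156.2 against 123.56 to 128.94) and U2af1 (31.82 against 42.43 to 44.02). In 8-cell embryos Hnrnpa2b1 had 792.3 CPM in pool B against 1111.62 to 1155.67, and Hnrnpul2 27.66 in pool A against 17.54 to 17.93. In morulae Hnrnpa2b1 had 693.0 CPM in pool A against 1029.29 to 1046.62, U2af2 28.56 in pool A against 20.57 to 21.12, and Snrpn 366.2 in pool C against 222.62 to 243.14. In blastocysts Hnrnpa1 had 785.4 CPM in pool D against 471.03 to 513.74, and Snrpn 159.9 in pool B against 97.38 to 103.11.

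Heavy minus light differences of 6 genes were called with opposite signs at different stages, and the difference between those stages passed the limma test in each of 11 cases. For Sf3b1 the blastocyst difference minus that of GV oocytes was -2.82 (adjusted p = 4.16e-05), of MII oocytes -3.81, of zygotes -5.72 and of 2-cell embryos -4.95 (adjusted p = 0.00102). For Hnrnpu it was -3.04 against GV (adjusted p = 0.00139) and -2.76 against MII oocytes (adjusted p = 0.00214), for Snrpg -2.95 against MII oocytes and -3.01 against zygotes, and for Prpf4b -3.79 against MII oocytes. For Snrpa it was 2.32 against MII oocytes (adjusted p = 6.4e-05), and for Snrpc the 2-cell difference minus that of MII oocytes was 5.36. The pairs were chosen for their opposite signs in the same data, so passing this test adds no support. Of all genes 14.9% were called between blastocysts and GV oocytes, 21.2% against MII oocytes and against zygotes, 4.33% against 2-cell embryos, and 2.14% between 2-cell embryos and MII oocytes.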

How the results depend on the processing

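Of 481 alternative counts, 341 lay within 1.5 times the reported count, and 159 of the 220 that leave out 1 library did. The counts below are of splicing factor genes, without the share of all genes called in the same alternative. All calls were kept in every alternative for 102 of 129 results on the pools, 5 of 44 on heavy fractions, 8 of 107 on heavy against light and 4 of 26 on heavy fractions beyond the pools. In the pools, edgeR called 39 genes from GV to MII, and edgeR, TMM scaling, quantile normalization and only the groups compared each 1 from 8-cell to morula. Heavy fractions with edgeR gave 2 (GV to MII), 0 (MII to zygote), 18 (2-cell to 4-cell) and 0 (morula to blastocyst). With edgeR on only the groups compared they gave 0 (MII to zygote), 6 (zygote to 2-cell), 1 (2-cell to 4-cell) and 0 at the 3 later steps. Unweighted they gave 5 (GV to MII), 0 (MII to zygote), 24 (2-cell to 4-cell), 5 (4-cell to 8-cell) and 0 (morula to blastocyst). With limma on only the groups compared they gave 3 from zygote to 2-cell and 0 at the 3 steps after the 4-cell stage, and 0 from 4-cell to 8-cell with TMM or quantile scaling, 2 from 8-cell to morula with quantile normalization, and 2 from MII to zygote with fractions 7 to 10. Heavy against light with edgeR gave 0 (GV), 2 (MII), 4 (zygote), 27 (2-cell), 13 (4-cell), 1 (morula) and 0 (blastocyst). With edgeR on single stages it gave 18 (GV), 2 (2-cell), 0 (8-cell) and 8 (morula), with limma on single stages 3 (GV), 3 (2-cell) and 0 (8-cell), and unweighted 0 (GV), 5 (MII), 6 (zygote), 19 (2-cell), 11 (4-cell), 7 (8-cell), 5 (morula) and 1 (blastocyst). It gave 26 (GV), 1 (8-cell) and 13 (blastocyst) without fraction 1, 1 (4-cell) with fractions 7 to 10 against 1 to 4, 2 (8-cell) and 13 (morula) with a pseudocount of 0.1, 14 (GV) with TMM and 13 (morula) with quantile scaling, and 17 (GV) with the gradient as a replicate block. Heavy fractions beyond the pools gave with TMM 0 (zygote to 2-cell), 2 (2-cell to 4-cell) and 0 (4-cell to 8-cell), unweighted 5 (GV to MII), 16 (zygote to 2-cell), 37 (2-cell to 4-cell), 18 (4-cell to 8-cell), 2 (8-cell to morula) and 0 (morula to blastocyst), with only the groups compared 1 (MII to zygote), 1 (zygote to 2-cell), 0 (4-cell to 8-cell) and 0 (8-cell to morula), with quantile normalization 6 (MII to zygote), 1 (zygote to 2-cell), 0 (4-cell to 8-cell) and 1 (morula to blastocyst), with fractions 7 to 10 1 (MII to zygote), and with a pseudocount of 0.1 8 (zygote to 2-cell) and 1 (morula to blastocyst). Leaving out 1 library gave 2 to 5 (MII to zygote) and 1 to 3 (8-cell to morula) in the pools; 0 to 4 (MII to zygote), 7 to 12 (zygote to 2-cell), 4 to 9 (2-cell to 4-cell), 0 to 3 (4-cell to 8-cell), 0 to 2 (8-cell to morula) and 0 to 1 (morula to blastocyst) in heavy fractions. It gave 0 to 3 (GV), 13 to 21 (MII), 12 to 19 (zygote), 2 to 6 (2-cell), 0 to 2 (8-cell), 7 to 11 (morula) and 12 to 15 (blastocyst) for heavy against light. Beyond the pools it gave 6 to 13 (GV to MII), 1 to 4 (MII to zygote), 1 to 6 (zygote to 2-cell), 2 to 7 (2-cell to 4-cell), 0 to 4 (4-cell to 8-cell), 0 to 2 (8-cell to morula) and 0 to 4 (morula to blastocyst). The direction of Snrnp70 in morulae turned, with 0.247 by edgeR, 0.061 by edgeR on morulae alone and 0.363 without fraction 1. The cause of these changes was not tested. Where 1 library was left out, the number of libraries and the choice of library changed together.

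Replicate letters are shared between stages only as names. A replicate block on them left the counts at 23, 4, 0, 2 and 11 in the 5 pool comparisons it could be run on and changed no call count by over 1.5 times. Depth limits fraction 1 of GV gradients A and B most.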

Other observations

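At the median, splicing factor transcripts had lower CPM in the fraction libraries than in the pools. The fraction value is a mean that weights all 10 fractions equally, whatever their depth or RNA content. Over genes with at least 10 CPM in either kind of library, the log2 ratio of the mean over 10 fractions to the pools had a median for the splicing factor genes of -1.04 in GV oocytes, -1.43 in MII oocytes, -1.69 in zygotes, -1.34 in 2-cell embryos, -1.97 in 4-cell embryos, -1.73 in 8-cell embryos, -1.77 in morulae and -1.50 in blastocysts. The median of all genes ran from -0.40 in blastocysts to 0.49 in zygotes. Lysate clearing, fractionation and amplification differ between the 2 kinds of library, and their parts cannot be told apart.

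Single genes departed from that median. Prpf19 was higher in the fractions than in the pools at 7 of 8 stages as the extreme gene of the list, by up to 5.47 in zygotes. Prpf39 was the lowest of the list in 4-cell embryos, at -6.48, and Snrpd1 in 2-cell embryos, at -5.36. Snrpd2, Snrpb and Snrpc, which fell in the pools at maturation, stood higher in the MII fractions than in the MII pools. They had 43.28 CPM against 1.13, 16.54 against 2.81 and 14.07 against 0.98. Their GV fractions had 404.29, 36.4 and 49.01 CPM, so the fractions fell too.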
